A study of Mus musculus with 8 samples.

Results

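Voltage-gated potassium channel alpha subunits are the pore-forming proteins of the Kv channels, and 40 of the 57010 genes in the deposited table belong to them by their symbols, which run from Kcna to Kcnd, Kcnf to Kcnh, Kcnq, Kcns and Kcnv. The rule that picks them uses the symbol and no measured value, and every one of the 10 subfamilies is represented by 1 to 8 genes. A Kv channel is a ring of alpha subunits that opens when the membrane is depolarized and lets potassium leave the cell, which ends action potentials and sets how a neuron fires or how a photoreceptor answers light. Subunits of the Kcna, Kcnb, Kcnc, Kcnd, Kcnh and Kcnq subfamilies form channels on their own, whereas those of Kcnf, Kcng, Kcns and Kcnv are electrically silent and act by joining Kcnb subunits. In photoreceptors the silent subunit Kcnv2 takes part in the outward potassium current of the inner segment, and KCNV2 variants cause a cone dystrophy with supernormal rod responses in humans.

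The retinas came from C57BL/6J mice aged 17 days with oxygen-induced retinopathy, a model of retinal neovascularization in which pups are exposed to high oxygen and then returned to room air. The 4 control libraries (titled AAV_NC) came from retinas that received a control scAAV, a self-complementary adeno-associated virus. The 4 knockdown libraries (titled AAV_sh) came from retinas treated with an scAAV against the long noncoding RNA MM2P, which their treatment label calls a knockout. Both groups thus carry the retinopathy and a virus, and the sources used here do not give the capsid, promoter, dose or route of the virus. The labels do not say whether libraries of a group come from separate animals, so p-values measure the spread between these samples, part of which may be technical.

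Library totals were 20450312 to 21402898 estimated counts in the controls and 16025695 to 20163448 in the knockdown. The target itself, listed as Mm2pr, had 1, 1, 16.95 and 7.34 counts in the controls, by replicate number, and 0, 0, 2 and 20.61 counts in the knockdown. The library labelled knockdown 4 thus had the highest target level of all 8, against its label, and controls 1 and 2 had as little as the other knockdown libraries, so the target does not separate the groups. Libraries are named as labelled. Without the library labelled knockdown 4, 24 of the 31 tested members had a negative log2 fold change, against 25 with it. Their median was -0.09, against -0.07. An unadjusted edgeR p under 0.05 was found for 6 members (5.52% of all tested genes), against 4 (5.27%) with all libraries. Leaving out another library instead gave from 1 member (without knockdown 3 or control 3) to 5 members (without knockdown 2). All 8 rod markers examined were detected in every library, with a summed level of 29640 to 33265 TPM (read counts corrected for gene length and library size). Lens markers moved with the groups. Their summed level over 9 genes was 2.83 to 5.64 TPM in the controls and 30.9 to 350.3 TPM in the knockdown, with Cryba1, Crygb, Crygc, Crygd and Lim2 at 0 in at least 1 library, and the part of this difference in the channel results was not tested. In whole retina, fewer cells of a type and less RNA per cell cannot be told apart.

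The selectivity filter that makes a channel pass potassium is a short pore segment, read here from the coding strand of GENCODE M21 transcripts (GRCm38). The coding bases of the filter are printed for the 5 members with an unadjusted p under 0.05 or with groups that did not overlap. The 15 bases in capitals code for the filter.
Kcnv2: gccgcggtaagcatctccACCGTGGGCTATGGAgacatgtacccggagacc
Kcna4: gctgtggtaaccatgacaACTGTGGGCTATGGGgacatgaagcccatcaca
Kcnc2: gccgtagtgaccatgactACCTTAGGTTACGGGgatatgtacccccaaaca
Kcng1: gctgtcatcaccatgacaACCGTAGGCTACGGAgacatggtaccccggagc
Kcnh1: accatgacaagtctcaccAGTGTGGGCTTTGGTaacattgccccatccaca
In 31 of the 39 genes whose filter was compared, the codon before the last glycine codon was TAT or TAC, for tyrosine. In the other 8, which are the 8 Kcnh genes, it was TTT or TTC, for phenylalanine. Over these 51 bases Kcna4 shared 36 with Kcnc2, 36 with Kcnv2 and 30 with Kcnh1.

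The silent subunit gene Kcnv2 had the highest TPM of the family, 335.8 ± 11.7 TPM (SD, n = 4) in the controls, or 28.7% of the summed TPM of all 40 members. The A-type channel gene Kcnd3 had 84.4 ± 5.26 TPM. TPM corrects for gene length, so levels of different genes can be compared on it. The genes that came after Kcnd3 by TPM, Kcnc1 (66.2 ± 4.496 TPM), Kcna5 (61.9 ± 4.55 TPM) and Kcna2 (60.7 ± 3.75 TPM), did not differ from each other beyond their SD. In the order of control levels the mean ± SD ranges of 26 of the 39 neighbouring pairs overlapped. Those that did not overlap included Kcnd3 and Kcnc1, Kcnc2 and Kcnc4, and Kcna3 and Kcnq1. At the low end, 9 members had a control mean under 1 TPM.

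**Figure D1:**
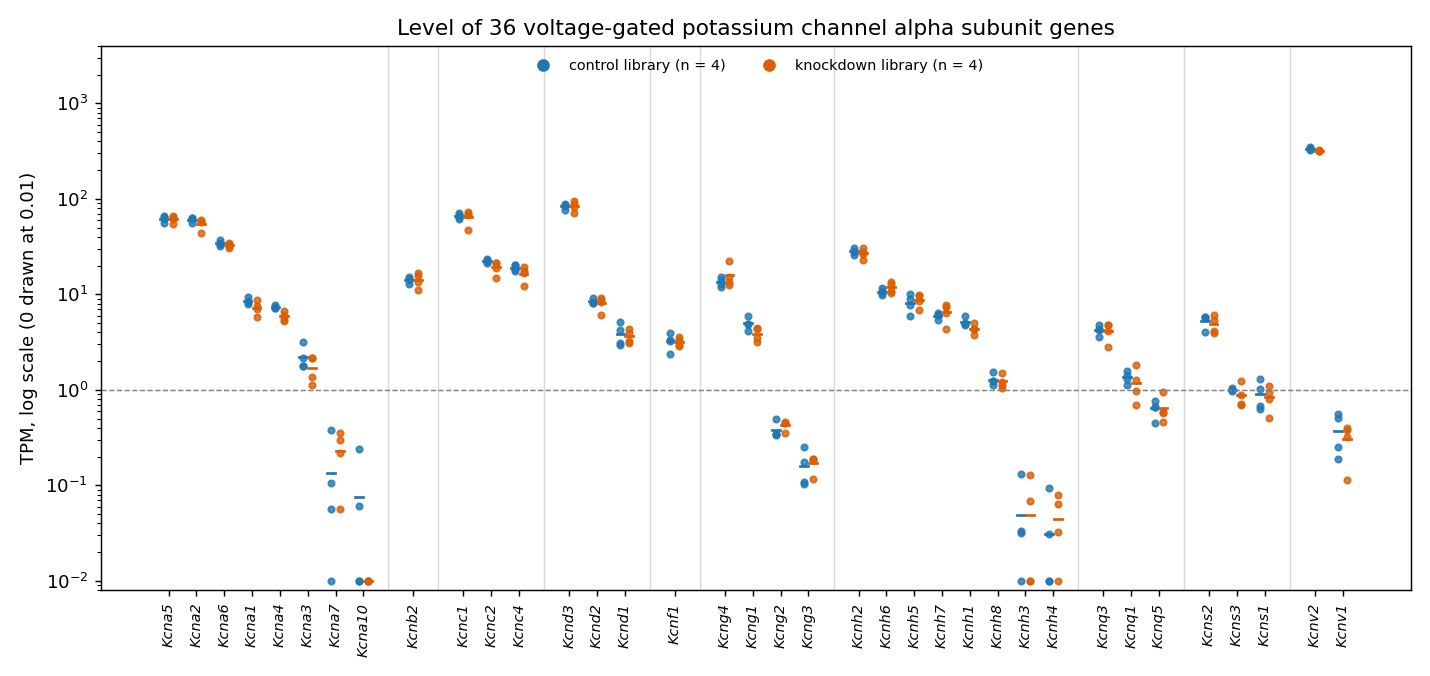
TPM of 36 members on a log axis, by subfamily, with a point for each of the 4 control (blue) and 4 knockdown (orange) libraries, a short line at each group mean and a dashed line at 1 TPM. Kcnv2 lies above 300 TPM in every library, and Kcna10, Kcnh3 and Kcnh4 below 0.3 TPM.

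Of the 40 members, 31 reached 1 TPM in at least 4 of the 8 libraries and were tested, and none of them passed. The test was edgeR's quasi-likelihood test on rounded counts, fitted over 16118 genes with Benjamini-Hochberg adjustment. With edgeR 0 of the 31 had an adjusted p under 0.05, where 0.062% of all tested genes did (0.0434% higher and 0.0186% lower in the knockdown). Over all tested genes 7 were called higher, 5 of them lens markers, and 3 lower, 1 of them a ganglion cell marker. DESeq2 called 0 members (0.279% of all tested genes) and limma on log2(TPM + 1) called 0 (0.0% of all tested genes). At an unadjusted p under 0.05 there were 4 members with edgeR, against 5.27% of all tested genes (2.66% in the lower direction), 3 with DESeq2 (background 4.71%) and 2 with limma (4.99%). All 4 of the edgeR set, Kcna4, Kcnc2, Kcnh1 and Kcng1, had lower values in the knockdown, and 4 of 31 is 12.9%. The 4 knockdown values lay entirely outside the 4 control values for 3 members, Kcna4, Kcnc2 and Kcnv2, all lower in the knockdown. That is 9.68% of the 31, against 3.31% of all tested genes in either direction and 1.71% in the lower direction.

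The 95% interval of the fold change, from the edgeR fit and not adjusted for the number of genes, lay within 1.5-fold either way for 26 of the 31 and within 1.25-fold either way for 12. Kcna3 was the 1 member whose interval reached beyond 2-fold. The log2 fold change was negative for 25 members and positive for 6, with a median of -0.07, whereas 48.2% of all tested genes were negative and their median was 0.00. This share rested partly on a single library: without knockdown 1, 19 of the 31 were negative (50.2% of all tested genes) and the median was -0.05. Without control 4 the median moved the other way, to -0.11, with 26 of the 31 negative.

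**Figure D2:**
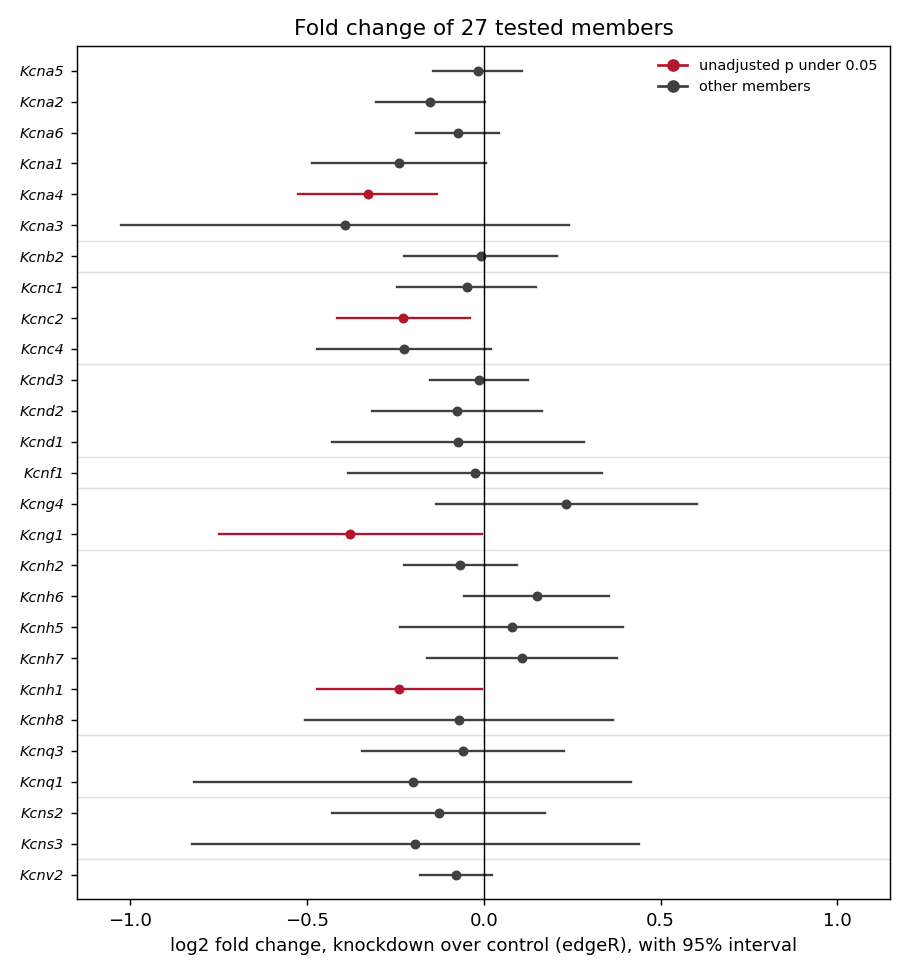
Log2 fold change of knockdown over control for 27 tested members, by subfamily, with the 95% interval from the edgeR fit (4 against 4 libraries). Red marks the 4 members with an unadjusted p under 0.05. All 4 lie to the left of 0, and 0 of the 27 passed after adjustment.

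Kcnv2 did not pass the test, although its groups did not overlap. The gene, on chromosome 19 (27322588 to 27337179 in GRCm38), had 679, 683, 727 and 691 CPM (counts scaled to library size, with TMM) in controls 1 to 4 and 676, 659, 650.1 and 648 CPM in knockdown libraries 1 to 4. Every knockdown value lay below every control value, though the nearest pair, knockdown 1 and control 1, differed by little. Its log2 fold change was -0.08 with an SE of 0.05 (adjusted p = 0.971 with edgeR), with an interval of the fold from 0.883 to 1.02. Rod markers summed to 31410 to 33265 TPM in the controls and 29640 to 31861 TPM in the knockdown. Cone markers, 8 genes all detected in every library, summed to 1314 to 1451 TPM and 1232 to 1347 TPM. Negative log2 fold changes were found for 7 of the 8 cone markers (median -0.09) and 7 of the 8 rod markers (median -0.04). Over all tested genes 48.2% were negative. In each list 0 genes passed with edgeR and 1 had an unadjusted p under 0.05 (12.5%, against 5.27% of all tested genes). The part of both marker lists in the Kcnv2 values was not tested. Kcnb2, a channel-forming delayed rectifier with which silent subunits can join, had 14.2 ± 0.892 TPM in the controls and 14.2 ± 2.51 TPM in the knockdown (SD, n = 4).

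Shaker-type Kcna channels, which open near the resting potential and hold back firing, held the member with the smallest p-value. Kcna4, an inactivating channel of axons and terminals (chromosome 2, 107290639 to 107298502), had 14.2, 14.6, 13.9 and 14.5 CPM in controls 1 to 4 and 10.6, 10.6, 12.7 and 11.7 CPM in knockdown libraries 1 to 4. The groups did not overlap, and the controls lay within a CV of 2.06%. Its log2 fold change was -0.33 (SE 0.09, unadjusted p = 0.00303 and adjusted p = 0.444 with edgeR), with an interval of the fold from 0.695 to 0.913. All 6 tested members of the subfamily had negative fold changes, and Kcna4 was the 1 with an unadjusted p under 0.05.

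Kcna2, Kcna5 and Kcna6, which were more abundant than Kcna4, had smaller fold changes. Kcna5, a delayed rectifier known from vascular muscle and heart, had 74.0, 74.1, 71.9 and 66.9 CPM in the controls and 65.6, 74.03, 68.7 and 75.0 CPM in the knockdown, and the groups overlapped (log2 fold change -0.02, SE 0.06, and adjusted p = 0.997 with edgeR). Kcna2, a low-threshold channel of axons, had 107, 110, 112 and 102 CPM in the controls and 81.4, 102, 97.9 and 105 CPM in the knockdown, with knockdown 1 far the lowest (log2 fold change -0.15, SE 0.07, and adjusted p = 0.930 with edgeR). Without knockdown 1 the log2 fold change of Kcna2 was -0.08. Kcna1, its common partner, had 13.96 ± 1.297 CPM and 11.8 ± 1.66 CPM (SD, n = 4), with 3 of the 4 knockdown libraries below the lowest control. Kcna6 had 48.2 ± 1.79 and 45.8 ± 1.41 CPM. Its exons share 39.6% of their bases with the opposite-strand gene Gm26673 in GENCODE M21, and whether the counting used strand is not given in the sources used here. Kcna3, known from T cells and microglia and less abundant than Kcna4, had 1.71 ± 0.543 and 1.31 ± 0.386 CPM. Its log2 fold change was the largest of the tested Kcna genes, with a wide error (-0.39, SE 0.29, and adjusted p = 0.989 with edgeR). The genes lie in tandem, with Kcna5, Kcna1 and Kcna6 side by side on chromosome 6 (126532551 to 126740674) and Kcna3, Kcna2 and Kcna10 on chromosome 3 (107036169 to 107195721). Neighbours on a chromosome had unlike levels. Kcna2 had 60.7 ± 3.75 TPM in the controls, while its neighbour Kcna10 had 0, 0, 4 and 1 counts in controls 1 to 4 and 0 in every knockdown library.

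Kcnc channels close fast and let neurons fire at high rates, and in the retina Kcnc1 and Kcnc2 are known from starburst amacrine cells. Kcnc2 (chromosome 10, 112271121 to 112467024) had 44.5, 45.3, 47.9 and 45.1 CPM in controls 1 to 4 and 31.7, 43.8, 37.9 and 42.7 CPM in knockdown libraries 1 to 4. All knockdown values were below all controls, but knockdown 2 and the library labelled knockdown 4 lay close under them and knockdown 1 far below. The log2 fold change was -0.23 (SE 0.09, unadjusted p = 0.0216 and adjusted p = 0.852 with edgeR), and without knockdown 1 it was -0.14 (unadjusted p = 0.0540 and adjusted p = 0.628 with edgeR). Kcnc1 had 85.8, 88.8, 82.7 and 81.04 CPM in the controls and 63.03, 88.4, 84.7 and 90.99 CPM in the knockdown. Apart from knockdown 1 the groups overlapped (log2 fold change -0.05, SE 0.09, and adjusted p = 0.997 with edgeR). Kcnc4 had 20.6 ± 1.48 and 17.6 ± 2.95 CPM (SD, n = 4). Kcnc1, Kcnc2 and Kcnc4 had negative fold changes, and knockdown 1 was the lowest of the 8 libraries in each of them. Amacrine markers, 9 genes all detected in every library, summed to 715 TPM in knockdown 1, 893 to 941 TPM in the other knockdown libraries and 843 to 949.8 TPM in the controls, and their part in the Kcnc values was not tested.

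**Figure D3:**
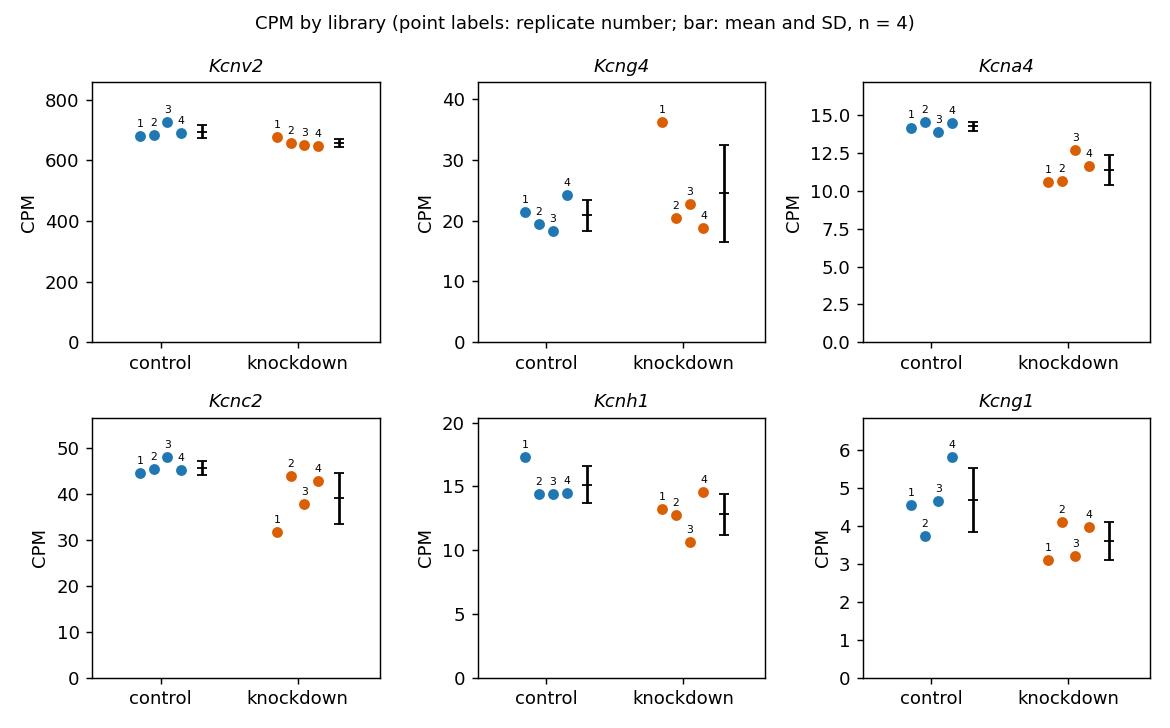
CPM by library, on axes that start at 0, for the silent subunit genes Kcnv2 and Kcng4 and the 4 members with an unadjusted edgeR p under 0.05; point labels give the replicate number and bars the mean and SD (n = 4). The groups do not overlap for Kcnv2, Kcna4 and Kcnc2, and they overlap for Kcng4, Kcnh1 and Kcng1.

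Kcnd genes encode A-type channels of dendrites and cell bodies, which open below the spike threshold and then inactivate. Kcnd3 had 95.3, 90.4, 92.6 and 86.2 CPM in the controls and 80.1, 87.5, 99.3 and 94.4 CPM in the knockdown. The knockdown libraries spread to both sides of the controls (log2 fold change -0.01, SE 0.06, and adjusted p = 0.998 with edgeR, interval of the fold from 0.900 to 1.09). Kcnd2 had 17.6 ± 1.49 and 16.8 ± 2.46 CPM and Kcnd1 8.20 ± 1.95 and 7.79 ± 1.12 CPM (SD, n = 4), each with overlapping groups.

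The Kcnh genes, relatives of the fly ether-à-go-go channel, went both ways, with 3 of 6 tested fold changes positive and 3 negative. Kcnh1 of the eag branch had 17.3, 14.4, 14.4 and 14.5 CPM in controls 1 to 4 and 13.2, 12.8, 10.7 and 14.6 CPM in knockdown libraries 1 to 4. Of the knockdown values 3 lay below all controls, and the library labelled knockdown 4 lay among them. Its log2 fold change was -0.24 (SE 0.11, unadjusted p = 0.0466 and adjusted p = 0.930 with edgeR). Kcnh2, the erg gene whose human counterpart is HERG of cardiac repolarization, had 51.5, 47.8, 47.5 and 45.4 CPM in the controls and 41.09, 52.4, 45.9 and 44.2 CPM in the knockdown. These overlapped (log2 fold change -0.07, SE 0.07, and adjusted p = 0.989 with edgeR). The other tested erg genes had positive fold changes. Kcnh6 had 14.5 ± 0.633 and 16.1 ± 1.77 CPM. Kcnh7 had 32.4, 33.2, 33.03 and 30.4 CPM in the controls and 24.3, 34.4, 40.9 and 39.4 CPM in the knockdown, so that knockdown 1 was the lowest and the other 3 were the highest of all 8. Its log2 fold change was 0.11 with an SE of 0.12 (adjusted p = 0.989 with edgeR) and, without knockdown 1, 0.25 (unadjusted p = 0.00468 and adjusted p = 0.374 with edgeR). Without knockdown 1 the share of all tested genes at an unadjusted edgeR p under 0.05 also rose, from 5.27% to 8.01%. Kcnh5, of the eag branch, had 13.5 ± 2.87 and 14.2 ± 1.94 CPM, and Kcnh8, of the elk branch, 2.22 ± 0.315 and 2.12 ± 0.301 CPM (SD, n = 4). The remaining elk genes, Kcnh3 and Kcnh4, had at most 4 counts in any library.

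Kcnq subunits carry the slow M-current that damps repetitive firing. Kcnq3 had 20.3 ± 2.22 and 19.5 ± 3.81 CPM (SD, n = 4). In the controls Kcnq3 stood at 4.24 ± 0.516 TPM. Kcnq1, a channel of heart and epithelia, had 1.35 ± 0.191 TPM and Kcnq5 0.639 ± 0.133 TPM there.

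Among the silent subunits other than Kcnv2, Kcng4 was the most abundant and Kcng1 the 1 with an unadjusted p under 0.05. Kcng1 had 4.55, 3.75, 4.67 and 5.82 CPM in controls 1 to 4 and 3.12, 4.12, 3.22 and 3.97 CPM in knockdown libraries 1 to 4. The groups overlapped, with knockdown 2 and the library labelled knockdown 4 above control 2 (log2 fold change -0.38, SE 0.17, unadjusted p = 0.0475 and adjusted p = 0.930 with edgeR). Kcng4, whose mouse gene marks alpha-type ganglion cells and a cone bipolar type, had 21.5, 19.5, 18.4 and 24.2 CPM in the controls and 36.2, 20.4, 22.7 and 18.8 CPM in the knockdown. Knockdown 1 was far the highest, unlike in most of the family (log2 fold change 0.23, SE 0.17, and adjusted p = 0.989 with edgeR), and without it the log2 fold change was -0.02 (edgeR adjusted p = 0.975). Kcnf1 had 6.31, 4.42, 6.37 and 7.99 CPM in the controls and 5.81, 6.93, 6.32 and 5.603 CPM in the knockdown, all within the range of the controls (log2 fold change -0.02, SE 0.17, and adjusted p = 0.998 with edgeR). Kcns2 had 12.6, 12.4, 12.5 and 9.32 CPM in the controls and 8.98, 9.17, 13.02 and 11.8 CPM in the knockdown, which overlapped (log2 fold change -0.13, SE 0.14, and adjusted p = 0.989 with edgeR). Kcns3 had 0.943 ± 0.0134 and 0.824 ± 0.225 CPM (SD, n = 4).

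Besides Kcna10, Kcnh3, Kcnh4 and Kcnq5, the members too low for the test were Kcna7, Kcng2, Kcng3, Kcns1 and Kcnv1. Kcna7, known from muscle, had 0 to 7 counts in the controls and 1 to 6 in the knockdown, and Kcng3 had 3 to 7 and 3 to 5. Kcnq5 had 27 to 44 counts in the controls and 25 to 42 in the knockdown. Kcng2 had 8 to 12 counts in the controls and 8 to 10 in the knockdown. Kcns1 and Kcnv1 had 14 to 30 and 7 to 21 counts in the controls and 11 to 23 and 4 to 13 in the knockdown. When these genes were fitted with no expression filter, the log2 fold change of Kcnq5 was -0.01 with an SE of 0.27 (adjusted p = 0.990 with edgeR), and the SE of the other 8 ran from 0.37 for Kcns1 to 1.75 for Kcna10, so only large changes could have been detected in those. At this depth 3 counts correspond to 0.140 to 0.187 CPM of a library total.

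Knockdown 1 stood apart from the other libraries across the family. It had the lowest CPM of the 8 libraries in 19 of the 31 tested members (61.3%), whereas it was the lowest for 18.5% of all tested genes. The library was also the lowest in 11 of 24 tested genes of other potassium channels (45.8%), in 6 of 13 auxiliary genes and in 6 of 10 anchoring genes. Among these 19 were Kcna1 to Kcna5, Kcnb2, Kcnc1, Kcnc2, Kcnc4, Kcnd2, Kcnd3, Kcng1, Kcnh2, Kcnh7, Kcnq3 and Kcns2. The median deviation of the members from the control mean, on the log2(CPM + 0.5) scale, was -0.25 in knockdown 1 and -0.04 to -0.03 in knockdown libraries 2 to 4, while control 4 had -0.07. It was 0.01 in knockdown 1 over all tested genes. The library had the highest CPM of the 8 libraries for 2 members (6.45%), Kcng4 among them, and for 19.7% of all tested genes.

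The same library differed in its cell type markers. Ganglion cell markers, 9 genes all detected throughout, summed to 1124 TPM in knockdown 1. They summed to 1313 to 1423 TPM in the other knockdown libraries and 1405 to 1511 TPM in the controls. Between the groups, edgeR called 1 of the 9 lower in the knockdown, against 0.0186% of all tested genes. All 9 had a negative log2 fold change, against 48.2% of all tested genes, with a median of -0.14. An unadjusted edgeR p under 0.05 was found for 5 of the 9 (55.6%, against 5.27% of all tested genes). Other lists moved as well. At that p 5 of 7 endothelial markers (71.4%) and 3 of 7 mural cell markers (42.9%) were lower in the knockdown. Of 7 tested lens markers 6 were higher (85.7%). Bipolar, horizontal, Müller and microglia markers had 0 genes at that p. Astrocyte markers, 4 genes including Gfap, summed to 155 TPM in knockdown 1 and 61.5 to 93.4 TPM in the other 7 libraries. Bipolar markers, 8 genes, summed to 1254 TPM in knockdown 1 and 1234 to 1350.2 TPM elsewhere, which puts it within the range of the rest. The part of these differences in the channel values was not tested. The spread between replicates was uneven. The median CV of the 31 members was 8.44% in the controls and 14.1% in the knockdown, against 8.14% and 9.34% over all tested genes.

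**Figure D4:**
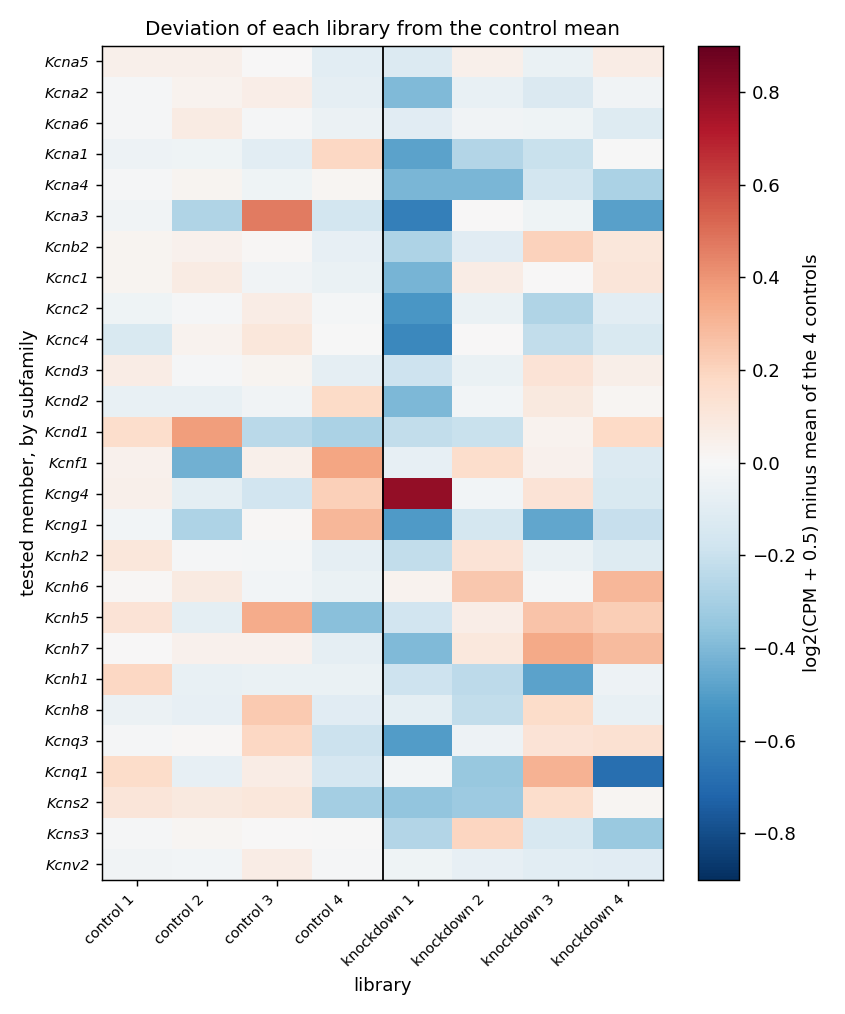
Deviation of each library from the mean of the 4 controls, on the log2(CPM + 0.5) scale, for 27 tested members in rows by subfamily; blue is below and red above the control mean. Knockdown 1 is blue in most rows and red for Kcng4, while knockdown libraries 2 to 4 show no common colour.

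Genes of proteins that attach to the alpha subunits did not pass the test either. Of 15 auxiliary genes, which encode the Kcnab beta subunits, the Kcnip calcium-binding proteins, the Dpp6 and Dpp10 partners of Kcnd channels, the Kcne peptides and the Kcnb partner Amigo1, 13 were tested and 0 passed with edgeR, with 1 at an unadjusted p under 0.05 (7.69%, against 5.27% of all tested genes). DESeq2 and limma called 0 as well. Fold changes were negative for 11 of the 13 (84.6%, against 48.2% of all tested genes), with a median log2 fold change of -0.09. Kcnab1, a beta subunit of Kcna channels, had 74.5, 67.9, 74.1 and 77.5 CPM in the controls and 61.2, 70.9, 66.8 and 66.8 CPM in the knockdown. Knockdown 2 lay above control 2 and the other 3 below all controls (log2 fold change -0.15, SE 0.06, unadjusted p = 0.0271 and adjusted p = 0.897 with edgeR). The groups did not overlap for 1 auxiliary gene, Amigo1 (7.69%, against 3.31% of all tested genes). It had 41.9 to 48.6 CPM in the controls and 39.6 to 41.5 CPM in the knockdown (log2 fold change -0.11, SE 0.06, and adjusted p = 0.951 with edgeR). Of 10 anchoring genes, which include the axonal adhesion gene Cntnap2 and the scaffold gene Dlg4, all 10 were tested. Of these 0 passed with edgeR and 0 had an unadjusted p under 0.05. A log2 fold change under 0 was found for 7 anchoring genes (70.0%, against 48.2% of all tested genes), with a median of -0.04. The most abundant of them, Dlg4 and Dlg2, had 539.6 and 116 TPM over the 8 libraries.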

How the data were processed

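Per the file itself, the authors deposited 1 table labelled as TPM whose values are estimated counts, since library totals differ, where TPM would give every library the same total. Of a library's values 90.6% to 91.9% are whole, but this share includes the zeros, which are whole in any unit. The authors' group means, 2 further columns, were not used. The submitters' processing notes name Bowtie 0.12.2 and mm9, with no role stated. The sources used here do not name the counting tool, its annotation or its use of strand, and an estimated count is uncertain where genes share sequence. TPM was derived by dividing each estimated count by the deposited gene length and scaling. Exons of 9 members overlap another gene on the opposite strand in GENCODE M21, and positions are from that annotation on GRCm38, matched by gene ID.

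Counts were rounded, and 16118 genes reaching 1 TPM in 4 or more of the 8 libraries were tested with edgeR 4.0.16 (TMM, group as the only term) in R 4.3.3. The SE was obtained by dividing the size of the log2 fold change by the root of its F statistic, and 95% intervals use the total degrees of freedom of the fit. Alternatives were DESeq2 1.42.0, limma 3.58.1 on log2 TPM with 3 pseudocounts, DESeq2's size factors in edgeR, other expression filters, a replicate block and leaving out each library. Filters were read from the longest open reading frame of each gene's protein-coding transcripts. Simulated counts on these 16118 genes gave recovery of 89.6% of 67 genes changed 1.5-fold and 98.5% of 67 changed 2-fold. The changed genes were drawn from the more abundant tested genes, at levels that Kcna3, Kcng1, Kcnh8, Kcnq1 and Kcns3 do not reach. More genes were changed than the 10 called in the data, which eases the adjustment, so recovery in the data may be lower. Depth sets a floor of 3 counts a library, which covers counting error only.

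Counts over the family cover all 40 members, but some members and sequences are not reported here by name. Values in each library are given for the most abundant member of a subfamily, for members at an unadjusted p under 0.05, for members without overlap and, beyond this rule, for Kcna2 and Kcnh7, chosen after their values were seen. Of the attached proteins, genes at an unadjusted p under 0.05 are given and, beyond this rule, Amigo1, whose groups did not overlap, chosen after its values were seen. Members and lists were chosen with earlier results of these data known.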

Additional observations from a re-analysis of the deposited data

Results flagged for a closer look

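In 4 of the 54 groups of 4 values examined (27 members in each of the groups), 1 control library lay far from the other 3 by Dixon's test, which flags about 1 group in 20 by chance. Kcnd2 had 19.9 CPM in control 4, against 16.8 to 17.2 CPM in the other controls. Kcnh1 had 17.3 CPM in control 1, against 14.4 to 14.5 CPM. Kcnh8 had 2.69 CPM in control 3, against 2.02 to 2.10 CPM. Kcns2 had 9.32 CPM in control 4, against 12.4 to 12.6 CPM.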

How the results depend on the processing

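No member of the family, no attached protein and no other potassium channel gene was called under any of the 16 alternatives, and the lowest adjusted p of a member was 0.338 (Kcna4, DESeq2). Kcna4 had an unadjusted p under 0.05 in the fit as reported and in all 16 alternatives (0.00144 to 0.0151), with adjusted p of 0.338 to 0.907 by edgeR, DESeq2 or limma and log2 fold changes of -0.38 to -0.18. The number of members at an unadjusted p under 0.05 was 4 of 31 as reported, 2 with limma on log2(TPM + 0.1), log2(TPM + 1) or log2(TPM + 5), 2 of 21 at a mean TPM of at least 5, 7 of 40 with no expression filter, and 1 to 6 when a library was left out (1 without control 3, 1 without knockdown 3). The share of all genes at that p was 5.27% as reported, 4.38% to 5.25% under the other settings, and 3.76% (without knockdown 3) to 8.01% (without knockdown 1) when a library was left out. Negative fold changes, a count added after the data were seen, numbered 16 of 21 at a mean TPM of at least 5, where fewer members are tested, and 19 to 26 of 31 when a library was left out. Over all genes 10 were called as reported, 45 with DESeq2, 157 with no expression filter, 1 at a mean TPM of at least 5, 9 with limma on log2(TPM + 0.1), 0 with limma on log2(TPM + 1) or log2(TPM + 5), and 0 to 58 when a library was left out (0 without control 1 or control 2, 1 without control 4, 58 without control 3); the cause was not tested.

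Replicate numbers are not stated to pair the libraries. Deviations of same-numbered libraries from their group means correlated at -0.112 to 0.00910, and those of differently numbered libraries at -0.126 to 0.139. So few correlations, taken within small groups, cannot exclude a pairing. With the replicate block 0 members and 11 of all genes were called, and 5 members had an unadjusted p under 0.05.

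Some fold changes changed sign, that of Kcng4 (0.23 as reported) without knockdown 1 among them. Kcnf1 had 0.0047 with limma on log2(TPM + 0.1) and 0.00049 with log2(TPM + 1). With a library left out, log2 fold changes ran from -0.049 to 0.018 for Kcna5, -0.086 to 0.073 for Kcnb2, -0.11 to 0.058 for Kcnc1, -0.17 to 0.074 for Kcnd1, -0.13 to 0.024 for Kcnd2, -0.061 to 0.0397 for Kcnd3, -0.16 to 0.11 for Kcnf1, -0.018 to 0.34 for Kcng4, -0.036 to 0.21 for Kcnh5, -0.16 to 0.036 for Kcnh8 and -0.13 to 0.069 for Kcnq3.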

Other observations

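Potassium channel pore genes outside the voltage-gated family, the Kcnj inward rectifiers, the Kcnk leak channels and the calcium- and sodium-activated channels, were examined beside it. Of 37 such genes 24 were tested, 0 passed with edgeR, DESeq2 or limma, 1 had an unadjusted edgeR p under 0.05 (4.17%, against 5.27% of all tested genes) and 17 had a log2 fold change under 0 (70.8%, against 48.2%, with a median of -0.09). The gene at an unadjusted p under 0.05, Kcnj14, was also the most abundant of them at 265 TPM over the 8 libraries. It had 282, 275, 319.5 and 341 CPM in the controls and 254, 299, 253 and 279 CPM in the knockdown, so the groups overlapped (log2 fold change -0.17, SE 0.08, and adjusted p = 0.930 with edgeR). Among the auxiliary genes the most abundant were the Kcnd partner Kcnip1 at 197 TPM and the beta subunit gene Kcnab2 at 172 TPM over the 8 libraries.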
